A study of Mus musculus with 2 samples.

Results

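The miR-290-295 cluster is a group of 7 miRNA hairpins, Mir290a, Mir291a, Mir292, Mir291b, Mir293, Mir294 and Mir295, which were followed here through both arms of each hairpin, the length of their small RNAs and the base at which these start. Its members were the sequenced tags that matched one of these 7 of the 1174 named hairpins of the GENCODE M21 annotation perfectly over their whole length. They comprised 399 distinct tags (333 with DMSO and 341 with PD) and made up 14 of the 509 mature arms detected at 1 RPM (reads per 1000000 clean reads) or more in either library. The libraries came from mouse embryonic stem cells (mESCs) of the established line J1, grown without feeder cells on gelatin with serum replacement and 1000 U/mL of LIF, which keeps such cells self-renewing. Cells received 1 μM PD0325901 (PD), an inhibitor of the kinase MEK that blocks ERK1/2 signaling, or DMSO as the control, for 24 h. Each treatment had 1 small RNA library, made from the combined RNA of 3 independent experiments, and thus no replicate. All intervals below are therefore 95% intervals of counting error in these libraries. They do not cover the variation between cultures, and reads amplified by PCR without molecular identifiers are not independent molecules.

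The miR-290-295 cluster is transcribed as 1 long primary RNA in pluripotent cells of the mouse. The nuclear enzyme Drosha with its partner Dgcr8 cuts the hairpins out of that RNA, and Dicer then cuts each hairpin into a 5p and a 3p arm, one of which is usually kept by an Argonaute protein. Bases 2 to 8 of a mature miRNA, the seed, pair with target mRNAs. Several 3p arms of the cluster carry AAGTGC in the seed (AAGUGC in RNA) and belong to the ESC-specific cell cycle family, which is known for speeding the passage of ESCs from G1 to S phase.

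In the GRCm38 build the hairpins lie on the plus strand of chromosome 7 within 2216 nt. Mir290a spans 3218626 to 3218708, Mir291a 3218919 to 3219000, Mir292 3219189 to 3219270 and Mir291b 3219482 to 3219560. After the widest gap, of 782 nt, Mir293 spans 3220343 to 3220422, Mir294 3220641 to 3220724 and Mir295 3220773 to 3220841. All but Mir290a lie opposite the last exon of Nlrp12, a gene of the minus strand, within its annotated untranslated region from 3218784 to 3222475. Mir290b and Mir292b, annotated on the minus strand over Mir290a and Mir292, had 10 and 0 reads with DMSO and 17 and 3 with PD. Nearly all matched tags over Mir290a and Mir292 thus came from the plus strand. Minus-strand tags elsewhere at the locus were not searched for, since tags were matched to annotated hairpins only.

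For 13 of the 14 arms, all but miR-292-3p, the most frequent tag over both libraries together is printed from its 5′ end as DNA letters, with bases 2 to 8 in capitals, because these bases group the arms. The 5p arms fall into a CTCAAA group and an ATCAAAG pair.
miR-290a-5p: aCTCAAACtatgggggcactttt
miR-292-5p: aCTCAAACtgggggctctttt
miR-293-5p: aCTCAAACtgtgtgacatttt
miR-294-5p: aCTCAAAAtggaggccctatct
miR-295-5p: aCTCAAATgtggggcacacttct
miR-291a-5p: cATCAAAGtggaggccctctct
miR-291b-5p: gATCAAAGtggaggccctctcc
Among the 3p arms, miR-291a-3p, miR-294-3p and miR-291b-3p start with AAAGTGC, so that AAGTGC fills bases 2 to 7. The most frequent tags of miR-295-3p and miR-290a-3p over both libraries start 1 base later. For miR-290a-3p this choice rests on a narrow margin, since the tag that starts 1 base earlier had 60 reads with DMSO and 118 with PD, and the printed tag 78 and 102. The most frequent tag of miR-293-3p starts with AGTGCC, so that its seed is GTGCCGC.
miR-291a-3p: aAAGTGCTtccactttgtgtgc
miR-294-3p: aAAGTGCTtcccttttgtgtgt
miR-291b-3p: aAAGTGCAtccattttgtttgt
miR-295-3p: aAGTGCTActacttttgagtct
miR-290a-3p: aAGTGCCGcctagttttaagccc
miR-293-3p: aGTGCCGCagagtttgtagtgt
RefSeq (table of build GRCm38) holds mature sequences for 13 of the 14 arms. The most frequent tag was identical to the RefSeq sequence in 7 of these arms and differed in where it starts or ends in 6. It started at the same base in 11 of the 13. The arms miR-291a-5p and miR-291b-5p, identical at 20 of 22 aligned bases, shared 36 control reads and 38 PD reads, which were counted for both. The 3p arms of Mir291a and Mir294, and those of Mir291b and Mir294, were identical at 19 of 22 bases, with no shared reads.

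The cluster was one of the main sources of miRNA reads in both libraries. It had 629277 of 18870345 clean reads with DMSO and 599917 of 20944808 with PD. This was 28.85% of the reads that matched miRNA hairpins in the control (Wilson interval 28.79 to 28.91) and 28.42% in the PD library (28.36 to 28.48). Its level was 33347 RPM with DMSO and 28643 RPM with PD, which gives a fold change of 0.859 (Clopper-Pearson interval 0.856 to 0.862). In such bulk samples, fewer cells that express the cluster and less cluster RNA per cell cannot be told apart. The libraries also differed outside the cluster. With DMSO, 63.03% of clean reads were 20 to 24 nt long and 7.11% were 28 to 32 nt long, and with PD these shares were 52.04% and 16.96%. Reads that matched miRNA hairpins were 11.56% and 10.08% of clean reads, so that most reads of 20 to 24 nt matched no named hairpin. Over all 509 detected arms the median log2 fold change was -0.17. With the reads that matched miRNA hairpins as the denominator the cluster total had a fold change of 0.985, and with the reads of 20 to 24 nt it was 1.04, on the other side of the control. The levels in clean reads thus give an order of arms by reads within a library and differences relative to all arms, and not a direction for the cluster as such. How far reads follow the amount of RNA of each arm was not tested.

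As a check of the labelled cell type, marker miRNAs of other tissues were summed. The pluripotent miR-302-367 hairpins, listed outside the cluster, summed to 15.2 RPM with DMSO and 26.7 RPM with PD, far below the cluster. Of these 5 hairpins, 2 were under 1 RPM. The 7 fibroblast or feeder hairpins summed to 265 and 213 RPM, with 2 of them under 1 RPM. The muscle list summed to 161 and 167 RPM, nearly all from Mir1a (up to 166 RPM), with 1 of 4 hairpins under 1 RPM. The blood list summed to 32.3 and 27.7 RPM, with 2 of 4 hairpins under 1 RPM. Mir122, of liver and visceral endoderm, was at 2.92 and 2.01 RPM. The neural list had the largest difference in RPM between the libraries, 278 against 493 RPM, mainly through Mir124a, which reached 476 RPM. The part of these lists in the cluster values was not tested.

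A pair of arms dominated the cluster. The most abundant arm of all detected miRNAs was miR-293-3p, at 11549 RPM with DMSO and 9620 RPM with PD. The second in both libraries was miR-290a-5p, at 10977 and 9065 RPM. Together they held 67.5% of the cluster reads in the control and 65.2% in the PD library, and 19.5% and 18.5% of all reads that matched miRNA hairpins. The ranking rests on reads per arm, without a length correction.

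After miR-293-3p, the most abundant 3p arm was miR-294-3p. It stood at 2896 RPM with DMSO (rank 9) and 2339 RPM with PD (rank 10). Next was miR-295-3p, at 2237 RPM (rank 14) and 2089 RPM (rank 12). The level of miR-292-3p was 1359 and 1326 RPM, and that of miR-291a-3p was 481 and 401 RPM. At the low end of the 3p arms, miR-291b-3p had 52.9 and 52 RPM and miR-290a-3p had 18.2 and 20 RPM. The reads of the 3p arms, all cut from 1 primary transcript, thus ranged from 18.2 to 11549 RPM in the control library. These levels are of whole arms and not of 1 seed. With DMSO, AAGTGC was at bases 2 to 7 in 38.7% of miR-295-3p reads, 50.4% of miR-292-3p reads and 35.6% of miR-290a-3p reads.

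The 5p arms, 4 of which had fewer reads than the other arm of their hairpin, were spread more narrowly after miR-290a-5p. The second of them was miR-291a-5p at 1460 RPM with DMSO and 1394 RPM with PD. Then came miR-293-5p with 741 and 691 RPM, and miR-292-5p with 596 and 656 RPM. The others were miR-294-5p with 393 and 367 RPM, miR-295-5p with 348 and 378 RPM and miR-291b-5p with 239 and 241 RPM. The order of the 14 arms was the same in both libraries except that miR-295-5p and miR-294-5p exchanged places. In the PD library the intervals of that pair overlapped, and no other neighbours in either order had overlapping intervals.

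**Figure D1:**
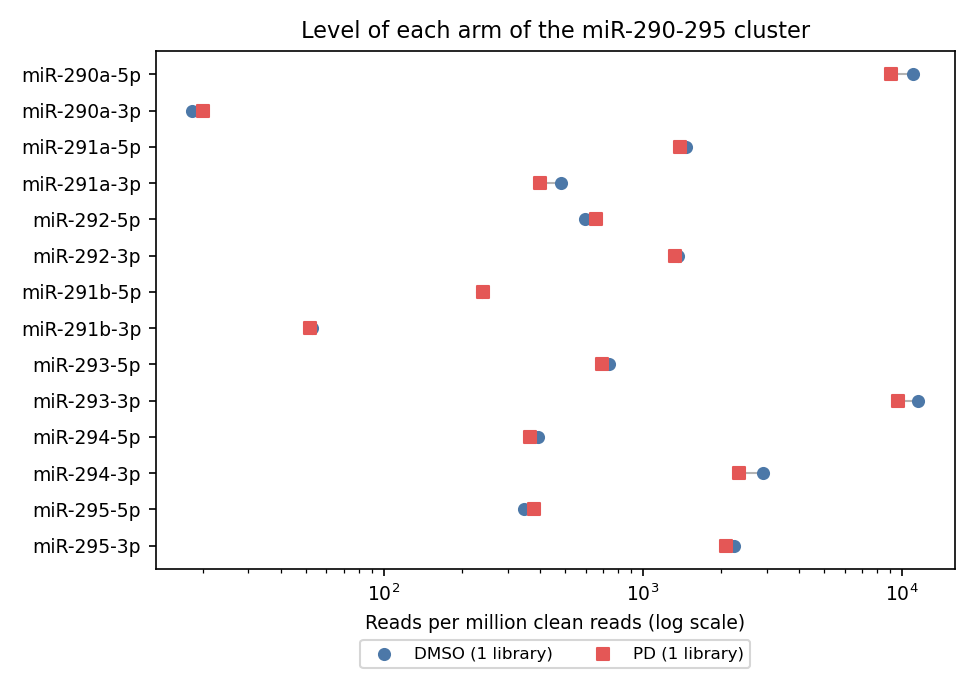
Level of each of the 14 arms in RPM of clean reads on a log axis, with a circle for the control library and a square for the PD library (1 library each). miR-293-3p and miR-290a-5p stand at 9065 RPM or more in both libraries, and the points of the other arms lie close together in each pair.

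By hairpin, the levels formed a steep series. Mir293 gave 12290 RPM with DMSO and 10311 RPM with PD and Mir290a gave 10996 and 9086 RPM. Mir294 gave 3289 and 2706 RPM, and Mir295 2587 and 2469 RPM. Mir292 (1956 and 1983 RPM) and Mir291a (1941 and 1796 RPM) were close to each other, and Mir291b gave 292 and 293 RPM. Position along the transcript did not order them, since the highest hairpins were the first and the fifth and the lowest was the fourth.

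No arm of the cluster had a fold change of 1.5 or more in either direction between the libraries. Among all detected arms the share was 19.4% (99 of 509). Among arms at 10 RPM or more in either library, a level that all 14 arms of the cluster reach, 35 of 267 passed. Fold changes ran from 0.808 for miR-294-3p to 1.10 for miR-292-5p, and the ratio of these values, which does not depend on the denominator, was 1.36. Reads of miR-292-5p were 0.206 times those of miR-294-3p in the control and 0.281 times in the PD library. Relative to the control level, 10 of 14 arms were lower in the PD library. The share was 67.4% of all detected arms and 74.9% of those at 10 RPM or more in either library. The interval excluded 1 for 11 of the 14 arms, 9 lower and 2 higher, and for 49.1% of all detected arms. This comparison depends on depth, which is larger for the cluster than for most miRNAs. For the 14 arms the median log2 fold change was -0.08, and for all arms -0.17. With miRNA reads as the denominator, 4 of 14 arms were lower, and with the reads of 20 to 24 nt it was 1 of 14.

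The lowest fold changes belonged to the 3 most abundant arms and to miR-291a-3p, the ninth in level with DMSO. The fold change of miR-294-3p was 0.808 (0.798 to 0.817), that of miR-290a-5p 0.826 (0.821 to 0.831) and that of miR-293-3p 0.833 (0.828 to 0.838). For miR-291a-3p, which shares the seed of miR-294-3p, it was 0.834 (0.809 to 0.859). The intervals of miR-290a-5p, miR-293-3p and miR-291a-3p overlapped with each other, while miR-294-3p lay below miR-290a-5p and miR-293-3p. These 4 arms were also below the median of all arms.

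A middle group lay nearer to the control level. The fold change was 0.933 (0.911 to 0.955) for miR-293-5p, 0.934 (0.921 to 0.946) for miR-295-3p, and 0.935 (0.906 to 0.966) for miR-294-5p. It was 0.955 (0.939 to 0.971) for miR-291a-5p and 0.976 (0.959 to 0.992) for miR-292-3p. For miR-291b-3p, at 0.981 (0.9 to 1.07), and for miR-291b-5p, at 1.01 (0.972 to 1.05), the interval included 1.

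Apart from miR-291b-5p, the arms above the control level were miR-292-5p, miR-295-5p and the rarest 3p arm. The fold change was 1.10 (1.07 to 1.13) for miR-292-5p and 1.09 (1.05 to 1.12) for miR-295-5p, and both intervals lay above 1. For miR-290a-3p it was 1.10 with an interval of 0.952 to 1.27, from 343 reads in the control and 419 in the PD library. With only tags that start at the first base of its most frequent tag it was 0.894, on the other side of the control. With only tags identical to the most frequent tag, miR-291a-5p (1.03) and miR-292-3p (1.01) turned to above the control level. In that setting miR-291b-5p had the highest fold change of the cluster arms, 1.28 in place of 1.01. By side, the 7 5p arms had a median log2 fold change of -0.07 (all detected 5p arms -0.15) and the 7 3p arms of -0.10 (all detected 3p arms -0.20).

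**Figure D2:**
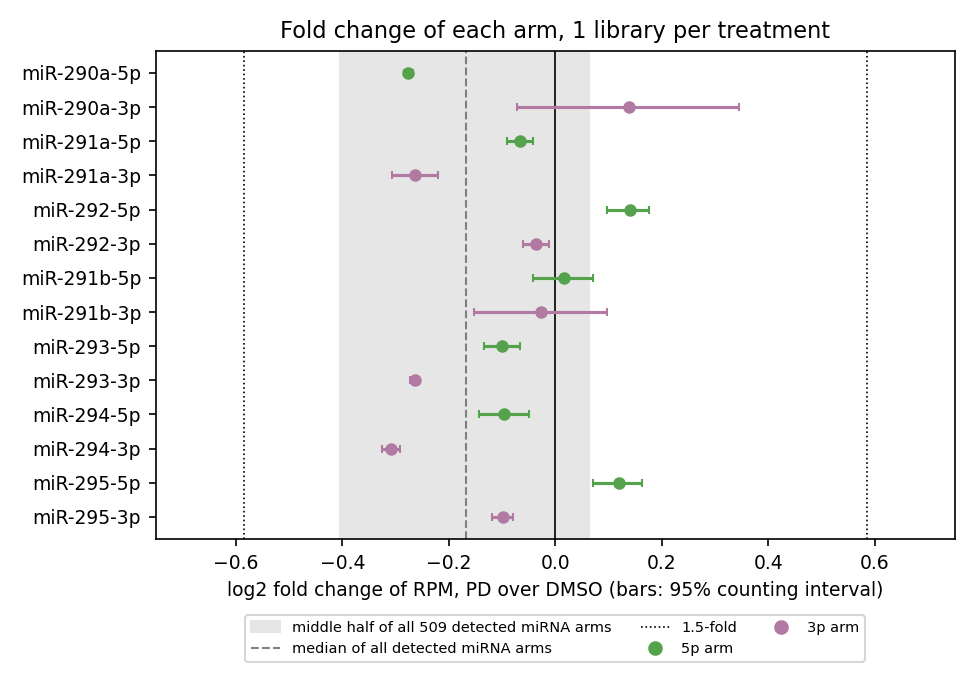
log2 fold change of RPM, PD over control, for each of the 14 arms (1 library per treatment), with bars for the 95% counting interval, a dashed line at the median of all 509 detected arms, grey shading between their quartiles (-0.40 and 0.06) and dotted lines at 1.5-fold. All 14 points lie inside the dotted lines, and miR-294-3p is the lowest and miR-292-5p the highest.

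Arms of high abundance in the cluster were compared with those outside it, since small counts widen the spread of folds. The 6 cluster arms with at least 1000 RPM in both libraries had fold changes from 0.808 to 0.976, all 6 below 1, with a median log2 of -0.18. The 16 such arms outside the cluster ranged from 0.602 to 1.17, with 12 below 1 and a median log2 of -0.22. The arms outside the cluster whose fold change was nearest to that of the cluster total were let-7c-5p (0.840, 3239 and 2722 RPM), miR-191-5p (0.881, 2472 and 2178 RPM) and miR-181d-5p (0.835, 2381 and 1988 RPM). Their likeness was the difference in log2 fold change between 1 pair of libraries, over the 16 arms searched.

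The share of each hairpin that appeared as the 5p arm does not depend on the denominator. It was 99.8% for Mir290a in both libraries. Mir291a gave 75.2% 5p reads in the control and 77.6% in the PD library, and Mir291b 81.8% and 82.3%. The other hairpins were mostly 3p. The 5p share was 30.5% and 33.1% for Mir292, 13.5% and 15.3% for Mir295, 11.9% and 13.6% for Mir294, and 6.03% and 6.70% for Mir293. The arm with more reads was thus the same in both libraries for each of the 7 hairpins, and it was the 5p arm in 3 of them.

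The 5p to 3p ratio was higher in the PD library for 6 of the 7 hairpins, and among the 168 hairpins with at least 10 reads on each arm in each library the share was 60.1%. None of the 7 passed a change of 1.5-fold, which 21.4% of the 168 did. The ratio changed 1.16-fold for Mir295 (1.12 to 1.20), 1.16-fold for Mir294 (1.12 to 1.20) and 1.15-fold for Mir291a (1.11 to 1.19). For Mir292 it changed 1.13-fold (1.10 to 1.16) and for Mir293 1.12-fold (1.09 to 1.15). For Mir291b the change was 1.03-fold with an interval that included 1 (0.937 to 1.13). Mir290a went the other way, from 604 reads of the 5p arm per read of the 3p arm to 453, a change of 0.75-fold (0.65 to 0.866), which rests on 343 and 419 reads of miR-290a-3p. Changes of this size were common among the 168, though counting error is wider in hairpins with few reads, and most of the 7 have many. The ratio moved as much as that of Mir290a or more in 62 of the 168 hairpins and as much as that of Mir295 or more in 105. The median change was 1.13-fold for the 7 hairpins and 1.07-fold for the 168.

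**Figure D3:**
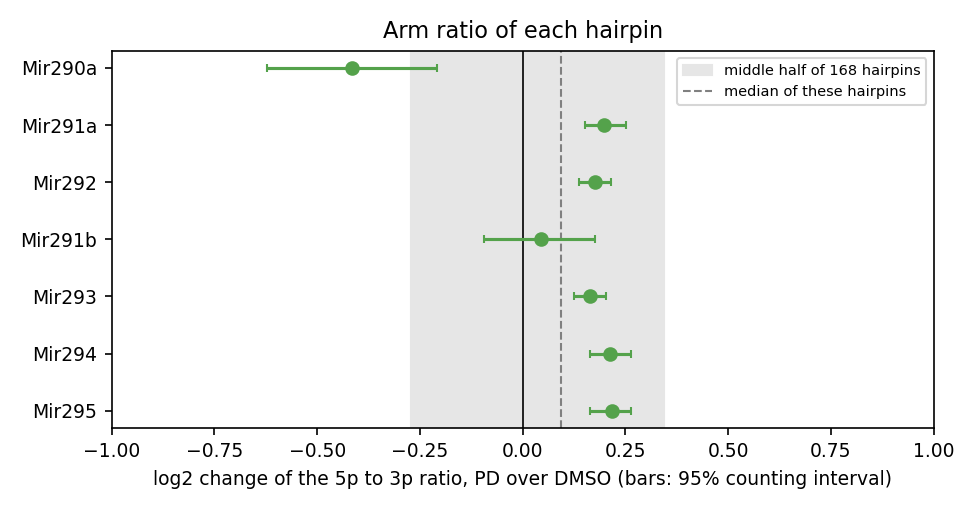
log2 change of the 5p to 3p ratio of reads, PD over control, for each of the 7 hairpins (1 library per treatment), with bars for the 95% counting interval, a dashed line at the median of 168 hairpins and grey shading between their quartiles. Mir290a is the single point below 0, and Mir291a, Mir292, Mir293, Mir294 and Mir295 lie above 0 with bars that do not reach it.

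Each arm had a characteristic length, which was the same in both libraries. The most frequent length was 21 nt for miR-292-5p and miR-293-5p, 23 nt for miR-290a-5p, miR-290a-3p, miR-292-3p and miR-295-5p, and 22 nt for the other 8 arms. The arms differed in how sharp that length was. In the control library, 96.5% of miR-294-3p reads and 95.3% of miR-294-5p reads were 22 nt, and 95.1% of miR-293-5p reads were 21 nt. The reads of miR-290a-5p spread over 22 nt (27.4%), 23 nt (43.7%) and 24 nt (25.8%), and those of miR-292-3p over 23 nt (50.3%) and 24 nt (45.4%). The most frequent tag of miR-290a-5p thus held 42.5% of its reads in either library, and that of miR-294-3p 96.4% and 97.1%.

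Among tags that matched miRNA hairpins, those of 18 to 20 nt differed more between the libraries than those of 21 nt or more. In the cluster, tags of 18 to 20 nt went from 1371 to 716 RPM, or from 4.11% to 2.50% of its reads. Their fold change was 0.522 (0.512 to 0.533). Tags of 21 nt or more had a fold change of 0.873 (0.870 to 0.876). The rest of the miRNAs had fold changes of 0.488 (0.484 to 0.492) for 18 to 20 nt and 0.929 (0.926 to 0.931) for 21 nt or more. From 18 to 23 nt the fold change of the cluster rose with length, from 0.391 at 18 nt and 0.489 at 19 nt to 0.867 at 22 nt and 0.892 at 23 nt. That of all other miRNAs rose from 0.392 at 18 nt to 0.910 at 22 nt and 0.988 at 23 nt. The cluster was above the other miRNAs at 19 nt (0.489 against 0.446), 20 nt (0.691 against 0.546) and 21 nt (0.854 against 0.828). It was below them at 22 and 23 nt and at 24 nt (0.876 against 1.03), and at 18 nt the values were nearly equal.

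Most of the short tags came from miR-293-3p. Its tags of 20 nt or less numbered 19025 in the control and 9854 in the PD library, or 8.73% and 4.89% of its reads, with a fold change of 0.467 (0.455 to 0.478). Its 18-nt tags alone went from 510 to 200 RPM, while its 22-nt tags went from 9527 to 8349 RPM (0.876). In miR-291a-5p the share of short tags was 8.34% and 4.55%, and its 22-nt tags had a fold change of 1.03 (1.01 to 1.05) while the whole arm had 0.955. The lowest fold changes of short tags were 0.298 (0.237 to 0.372) for miR-292-3p and 0.315 (0.262 to 0.376) for miR-294-3p.

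Some 5p arms did not follow. The short tags of miR-292-5p had a fold change of 1.32 (1.20 to 1.47), those of miR-294-5p 1.41 (1.04 to 1.91) and those of miR-293-5p 1.10 (0.981 to 1.22). These were also the 3 arms with a shorter mean tag in the PD library, by 0.038, 0.002 and 0.007 nt, against counting standard errors of 0.0076, 0.0053 and 0.0030 nt. That was 3 of 14 arms, and the share among the 309 arms with at least 100 reads in each library was 17.5%. The other 11 arms had longer mean tags in the PD library. The share of tags of 20 nt or less was lower in the PD library in 78.6% of the cluster arms and in 77.7% of the 309.

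The most marked gains in mean length were in miR-290a-3p, from 22.21 to 22.63 nt, in miR-291a-5p, from 21.89 to 22.06 nt, in miR-293-3p, from 21.70 to 21.84 nt, and in miR-291b-5p, from 21.45 to 21.57 nt. In miR-290a-3p, the 24-nt tags went from 17.5% to 28.2% of the reads and the 21-nt tags from 16.9% to 7.88%. In miR-291b-5p, the 22-nt tags went from 50.0% to 57.0%. In miR-295-3p, the 22-nt tags went from 55.0% to 51.0% and the 23-nt tags from 36.7% to 41.6%, while the mean length differed by 0.078 nt.

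**Figure D4:**
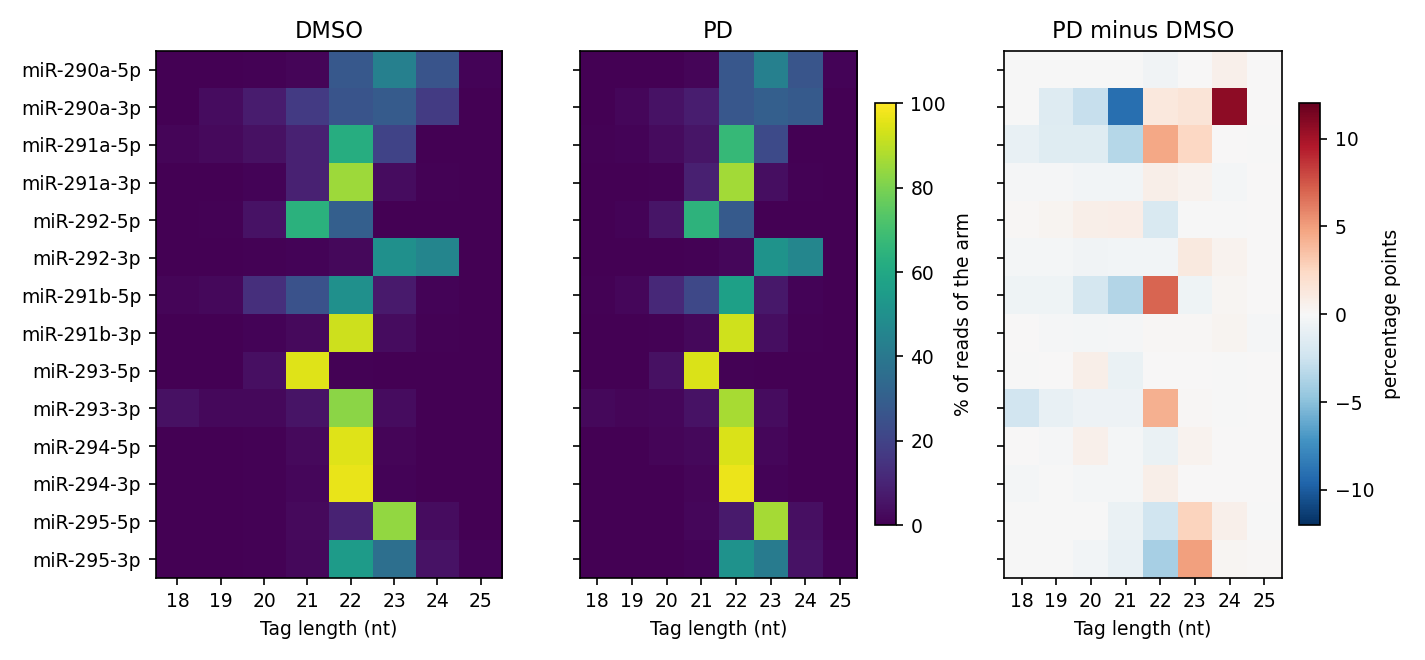
Share of the reads of each arm by tag length from 18 to 25 nt in the control library (left) and the PD library (middle), and the difference in percentage points, PD minus control (right). Each arm keeps its brightest length between the libraries, and the difference is largest in miR-290a-3p (17.5% to 28.2% at 24 nt) and visible in miR-291b-5p, miR-295-3p, miR-291a-5p and miR-293-3p.

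The first base of a tag sets its seed, and most arms of the cluster were nearly uniform there. The first base of the most frequent tag was used by 99.5% of miR-293-3p reads in both libraries, by 99.0% of miR-292-5p reads in both, and by 98.7% of miR-294-3p reads in both. For miR-290a-5p the share was 97.8% in the control and 97.9% in the PD library. For miR-291a-5p it was 95.9% in both libraries, and for miR-295-5p it was 94.8% and 94.7%.

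Seed variants were common in 4 arms. In miR-295-3p, 60.9% of control reads and 56.7% of PD reads began at the main start, and 38.7% and 43.0% began 1 base before it, which restores AAGTGC to bases 2 to 7. Tags with the earlier start had a fold change of 1.04 (1.02 to 1.06), and tags with the main start had 0.869 (0.853 to 0.884). In miR-292-3p both starts were used nearly equally, 50.4% and 49.7% at the base before the main start and 49.4% and 50.2% at it. In miR-291b-5p a start 2 bases upstream was used by 24.9% of control reads and 20.6% of PD reads. In miR-290a-3p 3 neighbouring starts were used, with 35.6% and 45.3% of reads at the first, 39.4% and 32% at the second, and 24.2% and 21.5% at the third.

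For miR-295-3p, miR-290a-3p and miR-291b-5p, the most frequent tags of the further starts are printed with their own bases 2 to 8 in capitals, to show how the seed moves by the base at which the tag starts.
miR-295-3p, 1 base earlier: aAAGTGCTactacttttgagtct
miR-290a-3p, 1 base earlier: aAAGTGCCgcctagttttaagccc
miR-290a-3p, 1 base later: aGTGCCGCctagttttaagccc
miR-291b-5p, 2 bases earlier: tCGATCAAagtggaggccctct
The 1-base-earlier tags of miR-295-3p and miR-290a-3p are the RefSeq sequences of these arms. The 1-base-later tag of miR-290a-3p carries GTGCCGC, the seed of miR-293-3p.

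The share at the main start was lower in the PD library in 8 of the 14 arms, and among the 309 arms the share of arms with this direction was 42.7%. Most of these differences were small. The main start is that of the most frequent tag and need not be the most used start. With PD, miR-290a-3p had 190 reads at the start 1 base earlier and 134 at the main start. The share at the main start moved by -7.38 percentage points in miR-290a-3p, and 13 of the 309 arms moved as much or more, including this one. It moved by -4.25 points in miR-295-3p (40 of 309) and by 3.83 points in miR-291b-5p (48 of 309). The Wilson intervals did not overlap between libraries for miR-295-3p (60.4 to 61.4% against 56.2 to 57.1%) or miR-291b-5p (72.5 to 75.1% against 76.5 to 78.8%), and they did for miR-290a-3p (34.3 to 44.6% against 27.7 to 36.6%).

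**Figure D5:**
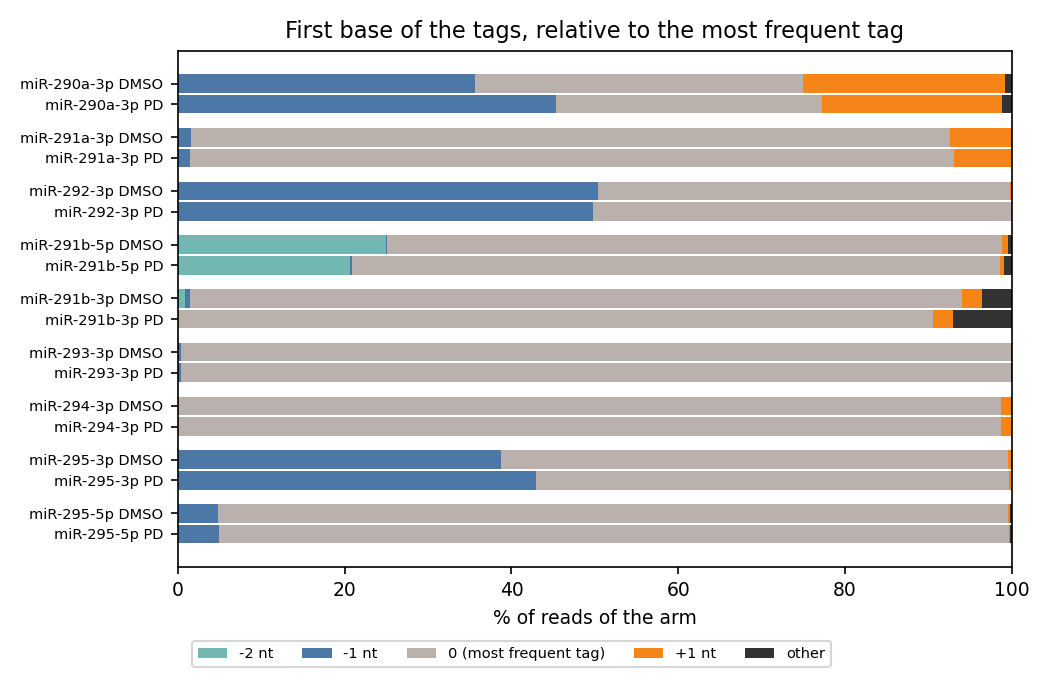
Share of the reads of 9 arms by the base at which the tag starts, counted from the first base of the most frequent tag of the arm (negative values lie upstream), with 1 bar for the control library and 1 for the PD library. miR-293-3p and miR-294-3p are almost wholly at 0, while miR-290a-3p, miR-292-3p, miR-295-3p and miR-291b-5p have a second start, and the -1 share of miR-295-3p is 38.7% in the control and 43.0% in the PD library.

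Summed by bases 2 to 8 of each tag, a pair of seeds made up most of the cluster. CTCAAAC, shared by miR-290a-5p, miR-293-5p and miR-292-5p, had 12061 RPM with DMSO and 10211 RPM with PD, a fold change of 0.847 (0.842 to 0.852). GTGCCGC of miR-293-3p went from 11499 to 9580 RPM, 0.833 (0.828 to 0.838). AAGTGCT, from miR-294-3p, miR-295-3p and miR-291a-3p, went from 4164 to 3574 RPM, 0.858 (0.850 to 0.867), and was 12.5% of the cluster reads in both libraries. Among the other seeds, AGTGCCG, mostly from miR-292-3p, was at 721 and 706 RPM (0.979, interval 0.956 to 1), and AAGTGCC, from miR-292-3p and miR-290a-3p, at 698 and 674 RPM (0.965, interval 0.943 to 0.989). Also near the control level were ATCAAAG of the Mir291a and Mir291b 5p arms (1575 and 1524 RPM, 0.967, interval 0.952 to 0.983) and CTCAAAT of miR-295-5p (330 and 358 RPM, 1.09, interval 1.05 to 1.12). The shifted seed AGTGCTA of miR-295-3p was at 1362 and 1183 RPM.

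The family seed AAGTGC at bases 2 to 7 was carried by 4911 RPM of cluster tags with DMSO and 4294 RPM with PD, a fold change of 0.874 (0.866 to 0.882). With DMSO the cluster supplied 99.1% of all miRNA reads with AAGTGC at these bases, and with PD 98.4%. This count leaves out tags with the hexamer 1 base further on, at bases 3 to 8, as in miR-93-5p, miR-106b-5p, miR-17-5p, miR-20a-5p, miR-20b-5p and miR-106a-5p. Because of their starts, the 3p arms contributed unequally. AAGTGC was at bases 2 to 7 in 98.7% of miR-294-3p reads in both libraries and in 91.1% and 91.6% of miR-291a-3p reads. The shares were 92.6% and 90.5% in miR-291b-3p, 50.4% and 49.7% in miR-292-3p and 38.7% and 43.0% in miR-295-3p. In miR-290a-3p they were 35.6% and 45.3%, and in miR-293-3p 0.051% and 0.061%.

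Outside the cluster, 13 detected arms carried AAGTGC within bases 1 to 8 of their most frequent tag. Of these, 6 were below the control level, where 67.4% of all detected arms were, and 4 passed 1.5-fold, all 4 upward, where 19.4% of all detected arms passed in either direction. Of the 4, miR-467a-5p and miR-467b-5p were counted from the same reads. The median log2 fold change of the 13 was 0.14. The 6 lower arms were miR-93-5p (378 and 375 RPM), miR-106b-5p (127 and 118 RPM), miR-17-5p (116 and 97.2 RPM), miR-20a-5p (55.6 and 47.8 RPM), miR-20b-5p (46.8 and 38.2 RPM) and miR-106a-5p (31.1 and 26.1 RPM), with fold changes from 0.816 to 0.993. The 4 past 1.5-fold were miR-302d-3p (2.44 and 5.68 RPM), miR-467a-5p and miR-467b-5p (26.2 and 45.9 RPM), and miR-467d-5p (9.80 and 15.4 RPM). Whether the cluster differs from these arms in its response could not be tested with 1 library per treatment.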

How the data were processed

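Small RNA of J1 mESCs was sequenced as 1 library for DMSO and 1 for PD, each of pooled RNA. The authors gel-purified small RNA, ligated adapters, removed low-quality and adapter reads and collapsed identical reads. They deposited raw read counts for each distinct tag, without alignment or normalization. A last line without a tag holds the sum of the column and was left out. The labels name build mm9, but the tags carry no coordinates.

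Perfect whole-length matches of tags to the named hairpins of GENCODE M21 (GRCm38) were found in Python 3.11.15 (numpy 2.4.6). The fold of each hairpin by ViennaRNA 2.7.2 set its arms. An arm received the tags that shared 16 nt or more with its most frequent tag, copies of a hairpin were merged, and tags of several miRNAs were counted for each. miRBase was not used here.

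Counts were divided by clean reads (RPM), with 0.01 RPM in place of 0, and 3 reads corresponded to 0.159 RPM with DMSO and 0.143 RPM with PD. An arm was detected at 1 RPM in either library, and changed at 1.5-fold, the criterion of the study. Intervals were Clopper-Pearson for folds, Wilson for shares and exact conditional for arm ratios, except Woolf for Mir290a and Mir293, with SciPy 1.17.1. Without replicates, neither edgeR's quasi-likelihood test nor the DESeq2 model could be used. edgeR 4.0.16 and DESeq2 1.42.0 in R 4.3.3 gave scaling factors only. Alternatives were 4 denominators, tags identical to the most frequent tag, tags starting at its first base and tags of 21 nt or more. Further ones were tags of 1 hairpin only, other filters on low values and a 2-fold threshold. The scripts were tested on simulated data. The miRNAs named were the 7 hairpins and both arms, all detected arms outside with AAGTGC within bases 1 to 8, and the 3 abundant arms nearest in fold change to the cluster. Members and lists were chosen with earlier results of these data known.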

Additional observations from a re-analysis of the deposited data

How the results depend on the processing

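The cluster total depended on the denominator. In place of 0.859, its fold change was 0.985 with the reads that match miRNA hairpins, 0.960 with TMM factors, 0.965 with DESeq2 size factors and 1.04 with reads of 20 to 24 nt, where the direction turned. Arms below the control level numbered 10 with clean reads, and 4, 4, 4 and 1 in the same order, while 46.6%, 50.5%, 49.9% and 37.1% of all detected arms were below it. By the construction of these denominators, all arms of a library move together. With only tags identical to the most frequent tag the total was 0.878, with tags of the same first base 0.852, and with tags of 21 nt or more 0.873. With tags of 21 nt or more, 1 arm had shorter tags. The share of the cluster in miRNA reads, 28.85% and 28.42%, became 29.96% and 29.1% with identical tags, 29.37% and 28.85% with the same first base, 30.58% and 29.29% with 21 nt or more, and 29.3% and 28.79% with tags of 1 hairpin only, and the cause of these was not tested. The counts of arms past 1.5-fold and of hairpins with a changed arm ratio were 0 under every alternative run. For the 2-fold threshold this was fixed in advance. The other filters on low values kept all arms of the cluster, and tags of 1 hairpin only left out few of its reads, so that neither could raise these counts. No paired analysis was possible because each treatment had 1 library, and for the same reason no replicate could be left out. Depth limits miR-290a-3p most, with 343 and 419 reads.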
